A study of Mus musculus with 18 samples.

Results

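Female mice in metestrus were compared with female mice in proestrus for the transcriptome of the spinal dorsal horn (DHSC, dorsal horn of the spinal cord) 2 h after a formalin injection. The comparison held 12 of the 18 samples of the series, 6 named F1/proestrus and 6 named F2/metestrus, and members were chosen by those names alone. Both groups were adult C57BL/6J females that carried no transgene or deletion, and both had received 2% formalin, an irritant that evokes a first and a second bout of nocifensive behavior, in a hind paw. The tissue was the DHSC on the injected side. F1 females had a short and F2 females a long interphase between the 2 bouts, and stage was read from vaginal smears. Every F1 sample was in proestrus and every F2 sample in metestrus, so behavior and cycle stage cannot be told apart. Females without formalin, the other side of the cord, estrus and diestrus were not analysed here. The labels do not say whether 1 sample is 1 mouse, so p-values measure only the spread between these samples.

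In the estrous cycle circulating estradiol peaks in proestrus and is low in metestrus. Estrogen and progesterone receptors are transcription factors activated by their ligands, and some dorsal horn neurons carry them. Dorsal horn neurons receive noxious input from the paw, which is passed on by glutamate and neuropeptides and held in check by GABA, glycine and opioid peptides. Immune cells and glia of the cord also respond to injury, and interferons, cytokines of antiviral defence, induce a shared set of genes in nearly every cell type.

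Each sample held 78112384 to 115074352 counts in genes. Levels are CPM, counts scaled to a fixed library total, after scaling for composition, and differences are log2 fold changes, metestrus minus proestrus, from a fit with the library series (replicates 1-3 or 4-6) as a term. A count of 3, taken as the floor of detection, was 0.0263 to 0.0377 CPM, and such limits cover counting error only. Of 55573 genes in the table, 24042 passed the filter on low counts and were tested. Genes were grouped into 65 lists of families, pathways and cell types, which held 2113 distinct genes, 1828 of them tested. The tissue held neurons of the dorsal horn in every sample: the vesicular glutamate transporter Slc17a6 was at 237 to 278 CPM and the GABA-synthesizing enzyme Gad1 at 225 to 274 CPM. Because the tissue is bulk, fewer cells of a type and less RNA per cell cannot be told apart.

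Single samples stood apart in markers of neighboring tissue, and their part in the results was not tested unless a value without the sample is given. F1/proestrus replicate 5 held RNA of dorsal root ganglion (DRG) neurons: Scn10a, the sodium channel Nav1.8 of nociceptors, was at 125 CPM there and at 0 to 0.153 CPM in the other 11 samples. The mean of the 13 tested DRG markers, centered over the samples, was 4.73 (log2) in that replicate and -0.62 to -0.16 elsewhere. Without it, their median log2 difference went from -1.60 to 0.08. Ependymal and choroid plexus markers were lowest in F1/proestrus replicate 4 (list score -1.59) and highest in F2/metestrus replicate 4 (1.07). Motor and cholinergic neuron markers were low in F1/proestrus replicates 2 and 6 (list scores -1.69 and -1.09), where choline acetyltransferase, Chat, was at 7.04 and 8.43 CPM against 14.5 to 28.2 CPM in the other 10 samples. In 1014 tested transcripts of the annotation's TEC class, whose expression awaits experiment, the median difference was -0.17, and the score was lowest in F2/metestrus replicate 4 (-0.68). The median over the 16253 protein-coding genes was 0.00.

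No gene passed a false discovery rate of 5% (edgeR quasi-likelihood test, 0% of the 24042), and the smallest adjusted p was 0.479, for Xlr3a. DESeq2 called 2 genes, Xlr3a and Gbp10, and edgeR without the filter on low counts called 22. At an unadjusted p under 0.05, 335 genes (1.39%) were higher and 507 (2.11%) lower in metestrus. In 13 genes (0.0541%) every metestrus value lay above every proestrus value, and in 14 (0.0582%) every one lay below. The 95% interval of the difference stayed within 1.5-fold either way for 76.2% of the genes. Of the genes measured in both library series, 51.3% had the same sign in both. No difference between stages below is a call at the false discovery rate in this fit. Where a gene is said to have passed, this means an unadjusted p under 0.05 and, Xlr3a apart, an adjusted p above 0.9, and values in parentheses after a difference are its 95% interval.

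The list with the highest median difference was that of the guanylate-binding proteins (GBPs), large GTPases that interferon induces and that attack the membranes enclosing intracellular pathogens. All 10 tested GBPs were higher on average in metestrus, 9 of them at p under 0.05 against 1.39% of all genes, with a median log2 difference of 0.99. The eleventh, Gbp2b, was below the filter. The tested genes lie in clusters on mouse chromosomes 3 (4 genes, chr3:142493978-142638008, mm10) and 5 (6 genes, chr5:105014150-105346472). Among 288 families of protein-coding genes that share a name stem and have 8 or more tested members, the stem Gbp had the highest median (1.05 over 9 genes), followed by Ly (0.08) and Kcnk (0.07). This rank uses the same genes and fit as the list and is no separate support.

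Promoters are shown for 2 GBPs and 2 immunity-related GTPases because those families had the highest medians and these windows hold the letters searched. The windows are RefSeq sequences of GRCm38.p6, from 250 bases before to 50 after each start, 5′ to 3′ on the strand of the gene. Capitals mark GAAA, any 2 bases and GAAA, the core of the interferon-stimulated response element (ISRE), or TTC, any 3 bases and GAA, the core of the gamma-activated site (GAS), matched on both strands. Gbp2 is at chr3:142620413-142620712 (+), Gbp7 at chr3:142530086-142530385 (+), Igtp at chr11:58199306-58199605 (+) and Irgm1 at chr11:48871371-48871670 (-).
Gbp2: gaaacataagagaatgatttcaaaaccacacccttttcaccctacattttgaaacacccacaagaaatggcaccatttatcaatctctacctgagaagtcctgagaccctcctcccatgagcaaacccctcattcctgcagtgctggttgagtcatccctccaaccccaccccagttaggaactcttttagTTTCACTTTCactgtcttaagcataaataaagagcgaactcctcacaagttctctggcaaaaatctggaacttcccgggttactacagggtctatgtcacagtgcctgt
Gbp7: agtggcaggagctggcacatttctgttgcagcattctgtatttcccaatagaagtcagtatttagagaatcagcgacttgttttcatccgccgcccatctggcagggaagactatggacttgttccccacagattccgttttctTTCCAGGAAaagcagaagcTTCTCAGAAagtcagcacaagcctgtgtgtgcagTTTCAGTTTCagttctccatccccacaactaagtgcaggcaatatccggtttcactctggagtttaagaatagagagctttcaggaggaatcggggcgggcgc
Igtp: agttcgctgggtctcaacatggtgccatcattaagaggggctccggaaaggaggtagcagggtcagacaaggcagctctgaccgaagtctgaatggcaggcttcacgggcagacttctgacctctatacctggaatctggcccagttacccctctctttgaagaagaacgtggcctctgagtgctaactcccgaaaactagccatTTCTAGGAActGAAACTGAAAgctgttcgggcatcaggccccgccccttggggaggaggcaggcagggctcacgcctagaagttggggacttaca
Irgm1: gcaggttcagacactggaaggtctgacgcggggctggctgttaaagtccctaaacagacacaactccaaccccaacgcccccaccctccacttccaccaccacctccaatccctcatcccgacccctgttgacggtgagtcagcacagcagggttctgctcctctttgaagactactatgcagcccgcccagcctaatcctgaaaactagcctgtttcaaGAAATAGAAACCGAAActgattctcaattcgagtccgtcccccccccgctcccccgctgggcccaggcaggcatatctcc
The ISRE letters begin 59 bases before the start in Gbp2, 53 in Gbp7 and 34 in Igtp, and in Irgm1 overlapping matches begin at -30 and -24. Gbp7 also holds GAS letters at -106 and -87, and Igtp at -45, next to its ISRE.

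Over the tested genes, 13890 had a window, and 3.73% of those held the ISRE letters and 8.32% the GAS letters. Of the GBPs, 4 had a window (Gbp2, Gbp3, Gbp5 and Gbp7), and the ISRE letters were in 4 of 4 and the GAS letters in 2 of 4. Of the immunity-related GTPases the ISRE letters were in 6 of 7, of the type I interferon-stimulated genes in 11 of 23 (47.8%), of the MHC class I genes in 4 of 17 (23.5%) and of the MHC class II genes in 1 of 8. The estrogen response element (GGTCA, any 3 bases, TGACC) was in 0.036% of the tested genes' windows, in none of those of these lists and in none of the 19 windows of estrogen-responsive genes. A match is a description of letters and not of a bound site.

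Gbp2 (ENSMUSG00000028270) was at 5.32, 5.89, 4.39, 5.79, 6.52 and 4.21 CPM in F1/proestrus replicates 1 to 6, and at 5.15, 24.5, 6.5, 13.8, 45.2 and 6.31 CPM in F2/metestrus replicates 1 to 6. Metestrus replicates 2, 4 and 5 lay above every proestrus value, while replicates 1, 3 and 6 lay within the proestrus range. The difference was 1.60 (95% interval 0.64 to 2.55, edgeR fit). Gbp3 was at 5.91 to 9.6 CPM in proestrus and at 7.59, 15.6, 8.85, 18.8, 25.3 and 8.96 CPM in metestrus, a difference of 0.91 (0.40 to 1.41). Gbp7 was at 6.84 to 9.66 CPM in proestrus and at 8.44, 15.5, 8.4, 20, 25.8 and 8.17 CPM in metestrus (0.78, 0.27 to 1.29). For both genes the same 3 metestrus replicates lay above the proestrus range and the other 3 within it.

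Gbp4 was at 1 to 2.23 CPM in proestrus and at 2.08, 2.83, 1.97, 15.1, 4.55 and 1.43 CPM in metestrus, so replicate 4 carried much of its difference of 1.42. Gbp8, with a difference of 1.71, was at 0.0219 to 0.206 CPM in proestrus and 0.143 to 0.582 CPM in metestrus. Its lowest proestrus value lay below the floor, so the size of its difference is uncertain. Gbp5 (0.92), Gbp6 (1.05) and Gbp9 (0.45) also passed, and Gbp11 (0.42, -0.04 to 0.87) did not. Gbp10 was near the floor in proestrus and at 0.223, 0.962, 0.199, 2.19, 1.87 and 0.13 CPM in metestrus. It shares 84.1% of its 50-base exonic words with other genes, chiefly Gbp6 (73.3%), so its counts are uncertain, as are those of Gbp6, which shares 70.7% (65% with Gm43302), whereas Gbp2 and Gbp3 share 2.03% and 3.75%. The family's median difference was 0.54 in replicates 1-3 and 1.51 in replicates 4-6.

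The immunity-related and other interferon-inducible GTPases, which guard cells against intracellular parasites and viruses, were higher on average in 9 of 12 tested members. Of the 12, 7 passed, all higher, against 1.39% of all genes, and the median difference was 0.56. Igtp was at 6.95 to 10.9 CPM in proestrus and at 7.94, 17.8, 7.14, 26.2, 31.4 and 8.5 CPM in metestrus, a difference of 0.92 (0.30 to 1.54). Iigp1 was at 0.9 to 1.74 CPM in proestrus and at 1.59, 6.31, 1.32, 7.76, 12.5 and 2.05 CPM in metestrus (1.79, 0.80 to 2.78). Irgm1, a regulator of the other members, was at 18.2 to 20.7 CPM in proestrus and at 20.9, 26.9, 19.3, 32.4, 36.3 and 18.6 CPM in metestrus (0.40, 0.10 to 0.70). Metestrus replicates 2, 4 and 5 were again the highest for each. Irgm2 (0.69), Gm4951 (0.97), Tgtp1 (1.93) and Tgtp2 (1.77) also passed. Tgtp1 and Tgtp2 share 81.2% and 86.6% of their 50-base words with other genes, so their split is uncertain. Mx1 and Mx2, dynamin-like GTPases that depend on type I or III interferon, differed by -0.09 and -0.19 and did not pass. Leaving out 1 sample gave -0.33 to 0.48 for Mx1, so its direction is not settled, and -0.28 to -0.11 for Mx2.

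**Figure D1:**
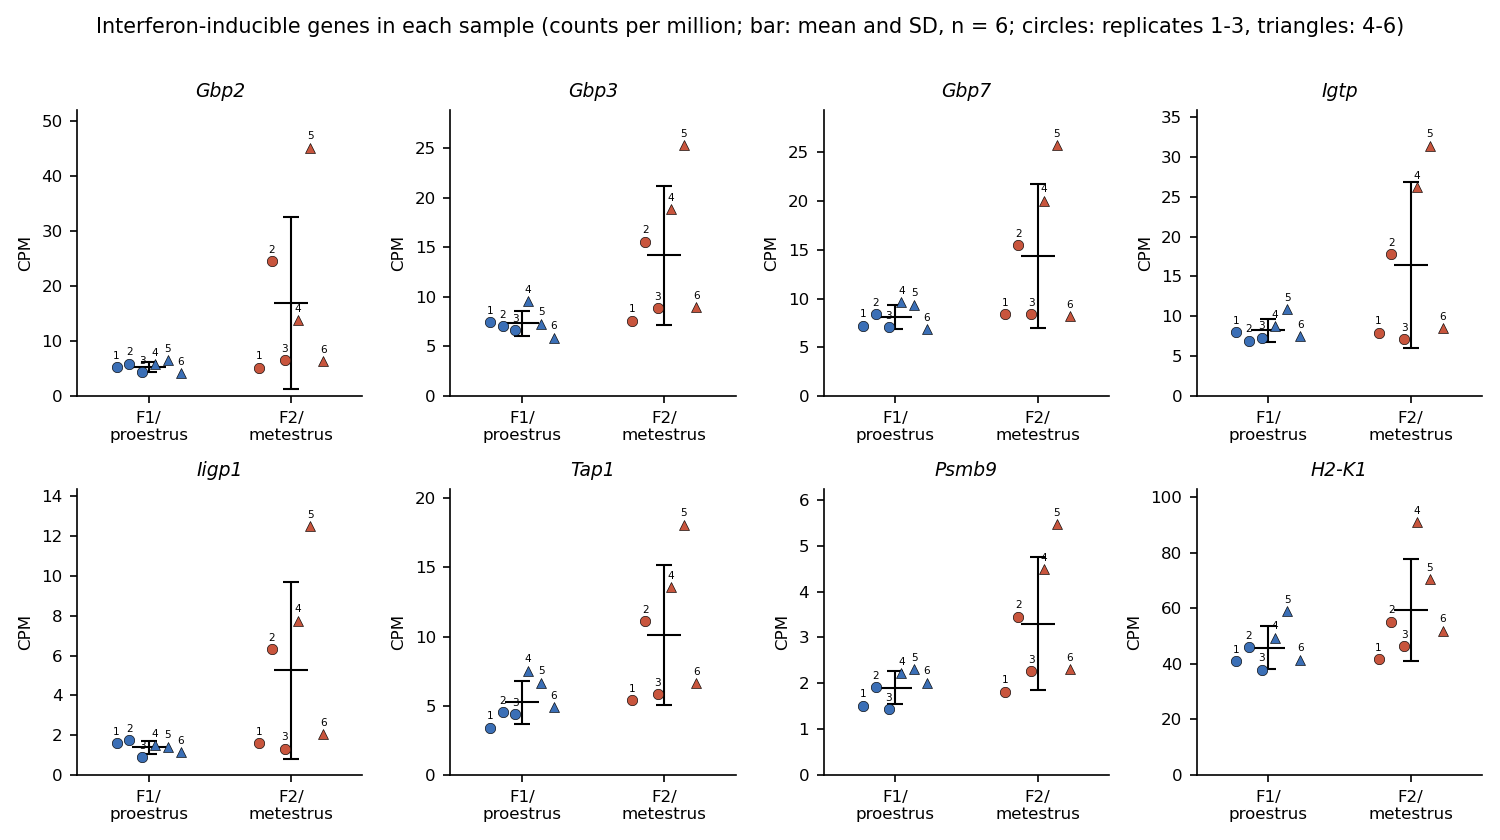
Levels in CPM (y axes, from 0) of Gbp2, Gbp3, Gbp7, Igtp, Iigp1, Tap1, Psmb9 and H2-K1 in each F1/proestrus and F2/metestrus sample, numbered by replicate, with circles for replicates 1-3, triangles for 4-6, and bars for the mean and SD (n = 6). Metestrus replicates 2, 4 and 5 lie highest, as for Gbp2 at 24.5, 13.8 and 45.2 CPM, while replicates 1, 3 and 6 lie near the proestrus samples.

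Of 33 tested type I interferon-stimulated genes, 29 were higher on average in metestrus, with a median difference of 0.19. At p under 0.05 none were lower and 9 were higher, against 1.39% of all genes. They included Oas2, Irf7, Zbp1, Ifit3, Ifit3b, Rsad2, Bst2 and Irf1. Irf1, a transcription factor that interferon induces, was at 6.65 to 8.65 CPM in proestrus and at 7.4, 11.7, 8.04, 10.8, 16.3 and 6.39 CPM in metestrus (0.40, 0.02 to 0.79). Oas2, a sensor of double-stranded RNA, was at 0.219 to 0.716 CPM in proestrus and 0.588 to 0.845 CPM in metestrus (0.89, 0.40 to 1.38). Stat2, which acts mainly in the type I and III pathways, differed by -0.00, Ifit1 by 0.12 and Isg15 by 0.41, and these did not pass.

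Major histocompatibility complex (MHC) class I genes, which load and present peptides of cytosolic proteins, were higher on average in 19 of 19 tested members. The median difference was 0.29, and 11 members passed, all higher, against 1.39% of all genes. Tap1, the peptide transporter, was at 3.43, 4.54, 4.39, 7.53, 6.68 and 4.88 CPM in proestrus and at 5.39, 11.1, 5.86, 13.6, 18.1 and 6.61 CPM in metestrus (0.93, 0.45 to 1.41). Only metestrus replicates 2, 4 and 5 exceeded every proestrus sample. The immunoproteasome subunits Psmb9 (0.77, 0.34 to 1.19) and Psmb8 (0.65) and the class I transactivator Nlrc5 (1.09, 0.34 to 1.84) passed as well. The classical heavy chains H2-K1 (0.35, 0.08 to 0.63) and H2-D1 (0.20, 0.03 to 0.38) and the light chain B2m (0.30, 0.03 to 0.56) differed by less. H2-K1 was at 37.9 to 59.1 CPM in proestrus and 41.6 to 91.1 CPM in metestrus. H2-Q6, a nonclassical heavy chain, was at 0.798 to 1.81 CPM in proestrus and reached 13.5 CPM in metestrus replicate 4 (1.27, 0.25 to 2.30). MHC class II genes, by which professional antigen-presenting cells show peptides to helper T cells, had none of 11 members past the threshold and a median of 0.10, and their transactivator Ciita differed by -0.19 (-0.49 to 0.11).

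The 4 interferon lists together held 74 distinct genes of the 24042 tested, with a median difference of 0.29. Of the 74, 36 were higher and 0 lower at p under 0.05, against 1.39% of all genes higher. The 36 made up 10.7% of all genes higher at that threshold. Of the 36, 34 lay above every proestrus value in metestrus replicate 5, 32 in replicate 4 and 27 in replicate 2, against 6 in replicate 1, 5 in replicate 3 and 2 in replicate 6. The 36 were picked for being higher in these same samples. The counts therefore only describe which samples were high, and the genes are not separate observations. The centered score of the GBPs was -1.0 to -0.20 in proestrus and -0.16, 0.87, -0.01, 1.30, 1.42 and -0.24 in metestrus replicates 1 to 6. Both library series held low and high metestrus samples.

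Interferons themselves were at or near the floor. Of 21 interferon genes in the table, 3 had a count above 3 in any sample, and the highest count was 6, for Ifnz. Ifng reached 2 counts and Ifnb1 4 counts. Receptor and kinase genes of the pathway, chosen after their values were seen, differed little: Ifngr1 by 0.05, Ifngr2 by 0.02, Ifnar1 by 0.00, Ifnar2 by 0.09, Jak1 by 0.03 and Jak2 by 0.01, with every 95% interval inside -0.13 to 0.20.

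Chemokines and their receptors had 35 tested members, 2 higher and 1 lower at p under 0.05, and a median of -0.06. For this list and the next ones, the shares over all genes were 1.39% higher and 2.11% lower. Cxcl10, an interferon-induced chemokine for T cells, was at 0.0204 to 0.703 CPM in proestrus and at 0.107, 1.47, 0.21, 0.23, 4.76 and 0.299 CPM in metestrus (2.25, 0.46 to 4.03). Metestrus replicates 2 and 5 stood out, but replicate 4, high in GBPs, did not. Cx3cr1, the fractalkine receptor of microglia, was at 24.3 to 31.1 CPM in proestrus and 24.2 to 37 CPM in metestrus (0.19, 0.03 to 0.35). The lower gene was Ccl19 (-0.62, -1.11 to -0.12). Among 51 tested interleukins and receptors, Il33 (0.15, 0.06 to 0.24), Il12rb1 (0.37), Il17rb (0.23) and Il7r (0.61) were higher at p under 0.05 and none lower. Il33, an alarmin of oligodendrocytes and astrocytes, was at 172 to 190 CPM in proestrus and 189 to 211 CPM in metestrus. Of the Toll-like receptor and inflammasome genes, 2 of 18 were higher, Tlr2 (0.22) and Tlr3 (0.18), and no complement gene of 20 passed.

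**Figure D2:**
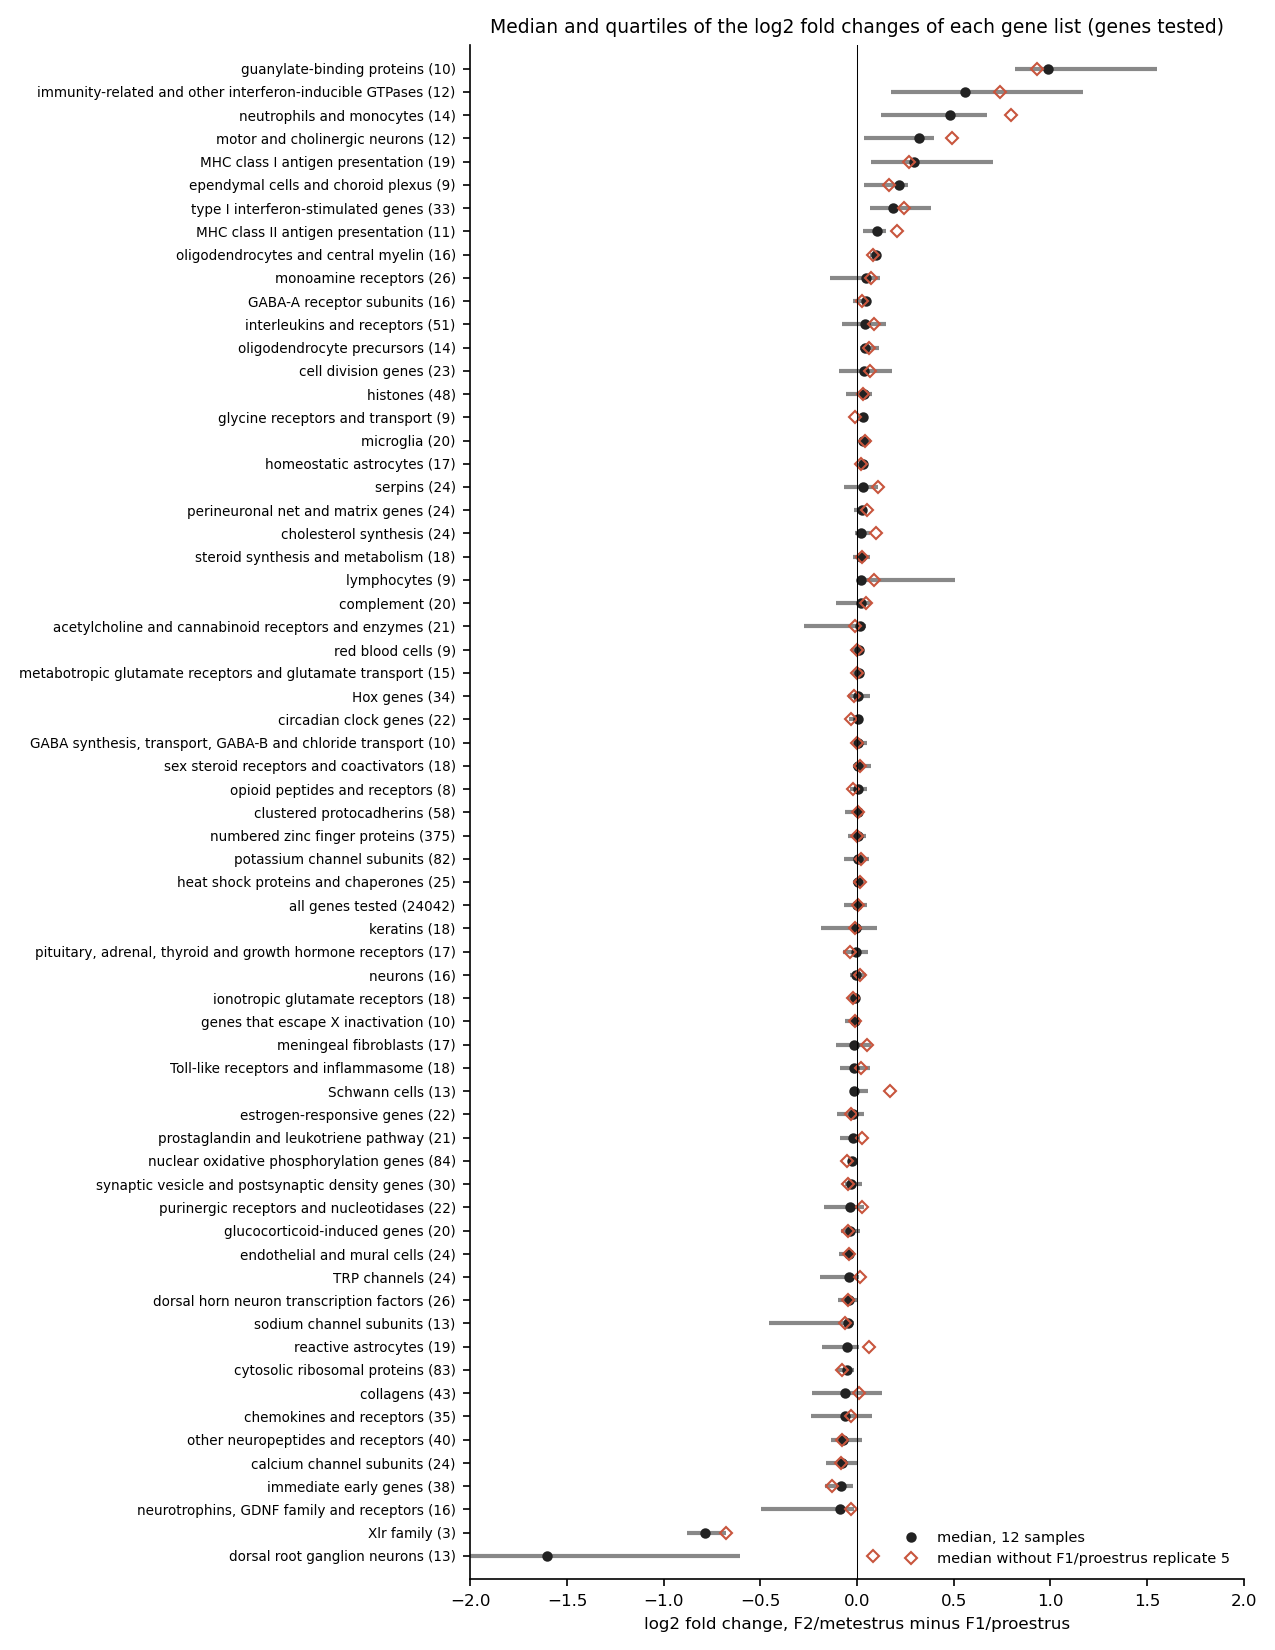
Median log2 difference (x axis, metestrus minus proestrus) of the tested members of each list, with bars for the quartiles and diamonds for the median without F1/proestrus replicate 5; the axis is limited to -2 to 2. The GBPs (0.99) and the interferon-inducible GTPases (0.56) lie farthest to the right, and the DRG markers move the farthest (-1.60 to 0.08) when that replicate is left out.

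Markers of immune cells from blood were at low levels in both groups. Of 14 tested neutrophil and monocyte genes, 12 were higher on average (median 0.48), and 1, the neutrophil granule gene Ngp, passed (0.89, 0.06 to 1.72). Ngp was at 0.384 to 3.02 CPM in proestrus, highest in replicate 5, and at 1.76 to 3.69 CPM in metestrus. Without F1/proestrus replicate 5, 7 of the 14 passed, all higher, against 2.21% of 24220 genes, with a median of 0.79, whereas 0 were higher without F1/proestrus replicate 1 or 2, F2/metestrus replicate 3 or 5, or the series term. They included Ltf (1.38), S100a9 (0.89) and S100a8 (0.73). Lcn2, a secreted siderophore-binding protein of neutrophils and reactive astrocytes, was at 1.96 to 2.44 CPM in proestrus and 1.86 to 4.38 CPM in metestrus (0.24, -0.12 to 0.60). None of 9 tested lymphocyte genes passed.

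Sex steroid receptors and their coactivators did not differ at p under 0.05 in any of 18 tested genes, and for 17 the 95% interval lay within 1.5-fold. Esr1, estrogen receptor alpha, was at 11.4 to 15.5 CPM in proestrus and 12.6 to 16.5 CPM in metestrus (0.11, -0.07 to 0.28). Pgr, the progesterone receptor and itself an estrogen target, was at 14.8 to 17.5 and 15.6 to 21.4 CPM (0.08, -0.05 to 0.22). Esr2, estrogen receptor beta, was at 0.501 to 1.02 CPM in proestrus and 0.439 to 0.9 CPM in metestrus (-0.18, -0.61 to 0.24), and it was the gene whose interval passed 1.5-fold. The samples of the groups overlapped for each.

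**Figure D3:**
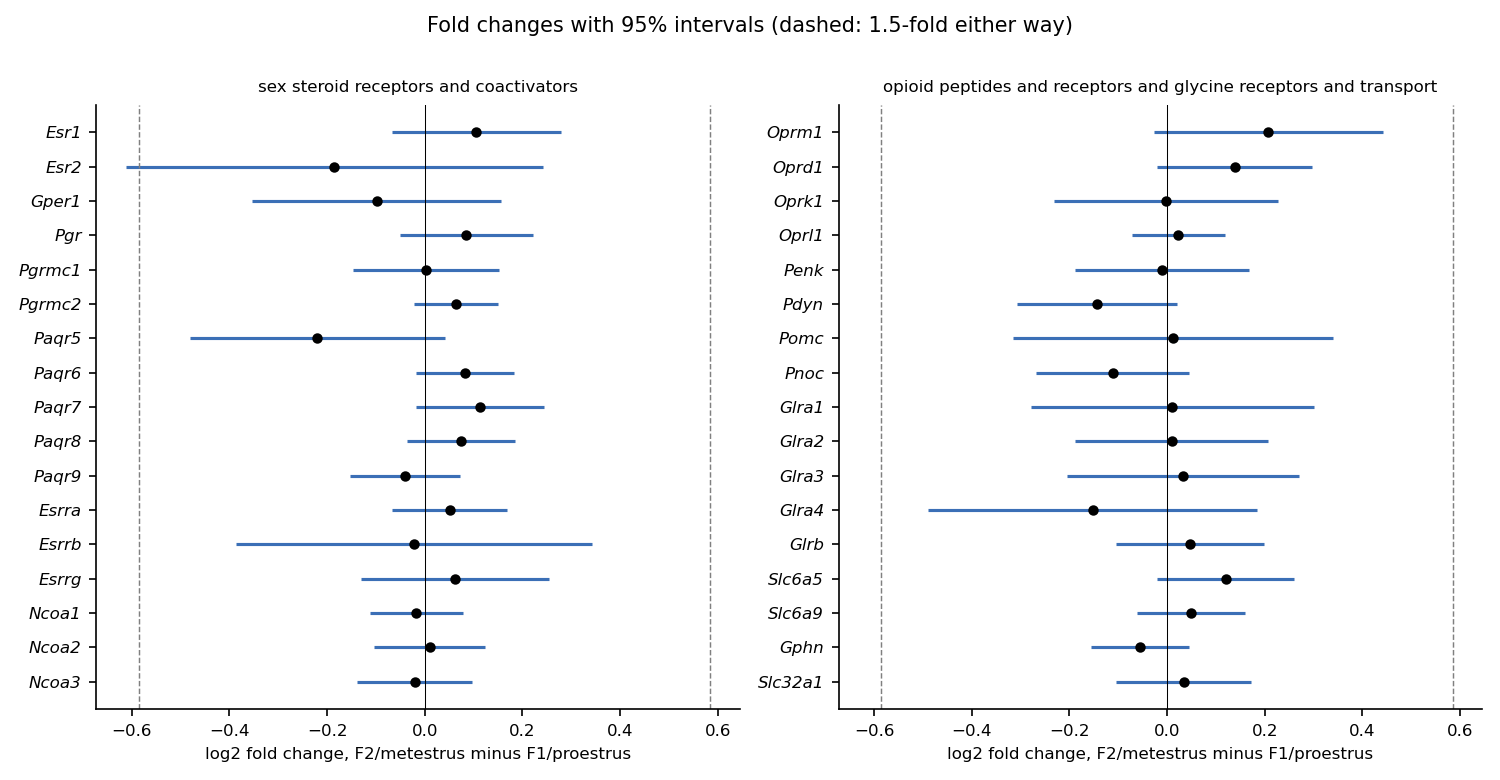
Log2 differences (x axis, metestrus minus proestrus) with 95% intervals for 17 of the 18 sex steroid receptors and coactivators on the left and for opioid and glycine genes on the right; dashed lines mark 1.5-fold either way. Every interval spans 0, and only that of Esr2 (-0.61 to 0.24) crosses a dashed line.

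Of 22 tested estrogen-responsive genes, Gal and the survival gene Bcl2 (-0.13, -0.25 to -0.01) were lower at p under 0.05 and none higher. Over all genes 2.11% were lower, and the list's median was -0.02. Greb1, a direct target of the estrogen receptor, differed by -0.26 (-0.54 to 0.02). Among 18 tested genes of steroid synthesis, Hsd11b1, which regenerates glucocorticoid, passed (0.11, 0.00 to 0.23), while Star (0.13) and Cyp11a1 (-0.25, -0.51 to 0.02), which supply and start the pathway, did not. Of 24 cholesterol genes, Insig1, which holds back their transcription factor, passed (0.14, 0.03 to 0.25). Without F1/proestrus replicate 5, 4 cholesterol genes were higher (Insig1, Cyp51, Sc5d and Acat2, 0.11 to 0.18), and of the estrogen-responsive genes Gal and Fos were lower and Ltf and Igfbp4 higher. Of 20 glucocorticoid-induced genes, 1 passed, Sult1a1 (-0.17), and of 17 pituitary, adrenal, thyroid and growth hormone receptors, 0.

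The genes of fast transmission showed no member past the threshold. This covered 16 GABA-A receptor subunits (median 0.04), 9 glycine receptor and transport genes (0.03), 10 genes of GABA synthesis, transport, GABA-B and chloride transport (0.01), 18 ionotropic (-0.01) and 15 metabotropic glutamate receptor and transport genes (0.01) and 30 synaptic vesicle and postsynaptic density genes (-0.03). For all glycine, GABA synthesis and synaptic genes the 95% interval lay within 1.5-fold. Slc6a5, the glycine transporter of inhibitory neurons, was at 237 to 375 CPM in proestrus and 283 to 407 CPM in metestrus (0.12, -0.02 to 0.26). Opioid peptides and receptors had 0 of 8 past the threshold: the mu receptor Oprm1 differed by 0.21 (-0.03 to 0.44), Pdyn by -0.14 and Penk by -0.01. Without F1/proestrus replicate 5, Pdyn, the precursor of dynorphins, passed at -0.19. Acetylcholine and cannabinoid genes had 0 of 21 and monoamine receptors 1 of 26, Drd5 (0.19).

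Of the transmitter genes, Gal and Npy had values that did not overlap between groups. Of 40 tested peptides and receptors, 27 were lower on average in metestrus, 4 at p under 0.05 and none higher, with a median of -0.07, against 2.11% of all genes lower, and leaving out 1 sample gave 2 to 5 lower. Gal (ENSMUSG00000024907), galanin, a modulatory peptide of dorsal horn and sensory neurons, was at 14.3, 15.1, 14.6, 15.4, 22.4 and 17.4 CPM in proestrus and at 13, 13.5, 13.2, 12.7, 13.9 and 14 CPM in metestrus. Every metestrus value lay below every proestrus value, as in 0.0582% of genes. The difference was -0.29 (-0.48 to -0.11), and without F1/proestrus replicate 5, the highest sample and the one with DRG RNA, it was -0.20. Npy (ENSMUSG00000029819), neuropeptide Y, made by inhibitory interneurons of the superficial dorsal horn, was at 30.5, 29.7, 31, 33.1, 31.5 and 52 CPM in proestrus and at 27, 27.3, 24.8, 29, 26.5 and 26.6 CPM in metestrus. The groups did not overlap, and the difference was -0.35 (-0.58 to -0.13). Proestrus replicate 6 stood far above the rest, and leaving out 1 sample gave -0.40 to -0.22.

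Tac1, the precursor of substance P, was at 38.2 to 62.9 CPM in proestrus and 40.3 to 47.6 CPM in metestrus (-0.21, -0.41 to -0.02). Adcyap1, the precursor of PACAP, was at 29.6 to 40.9 and 28.2 to 33.5 CPM (-0.14, -0.27 to -0.01). For both, proestrus replicates 5 and 6 were the highest samples and the rest overlapped with metestrus. Without replicate 5, Gal, Npy and Tac2 (-0.16) were the members past the threshold, and neither of these was: Tac1 differed by -0.16 (-0.34 to 0.02) and Adcyap1 by -0.12 (-0.26 to 0.02). The receptors of these peptides did not pass, Tacr1 at 0.13 (-0.00 to 0.26), Adcyap1r1 at 0.09, Npy2r at -0.19 and Galr2 at 0.33. By library series, the 40 genes had a median of -0.00 in replicates 1-3 and -0.12 in replicates 4-6.

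**Figure D4:**
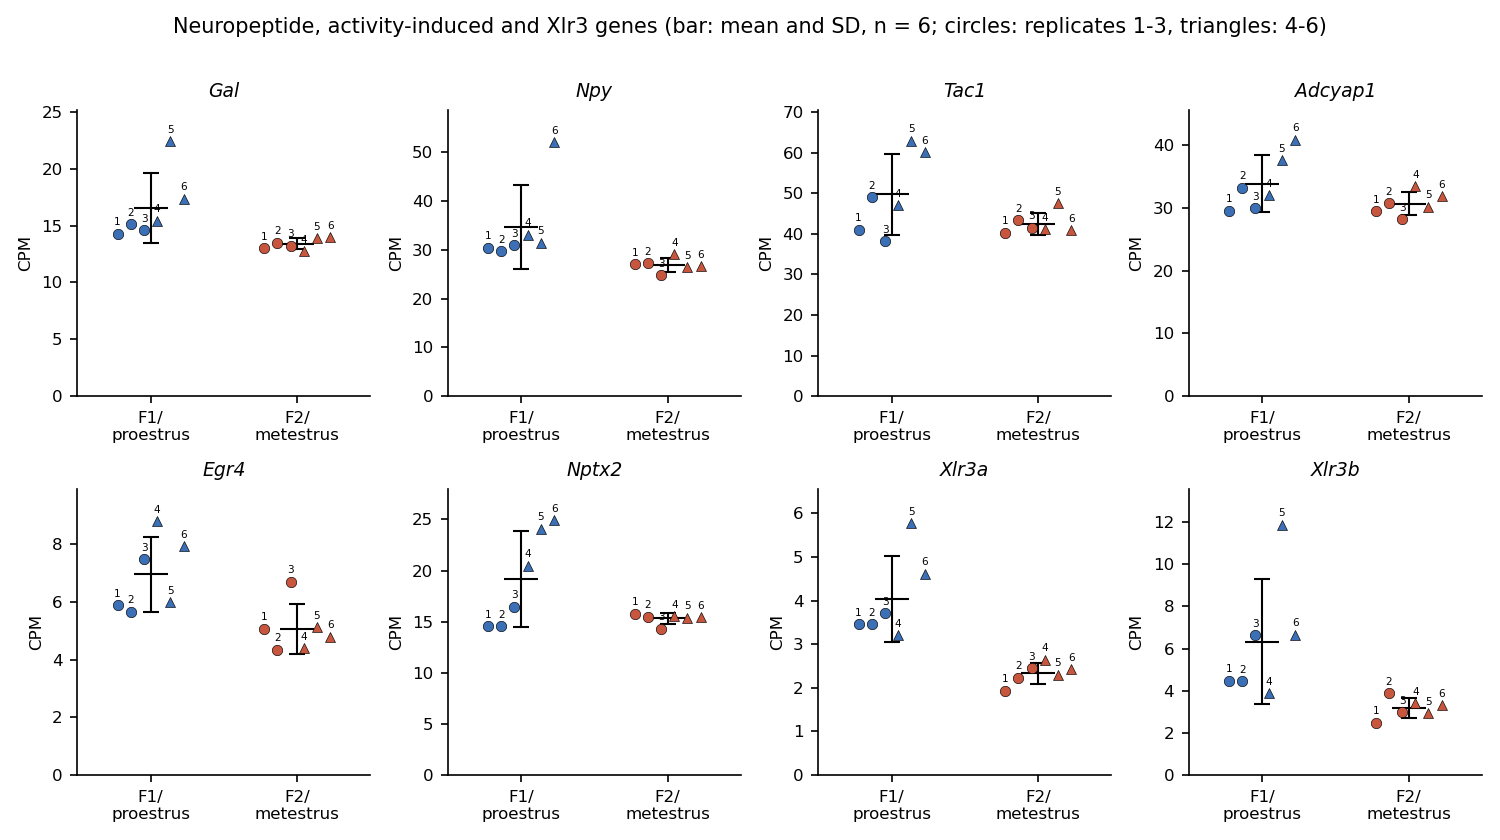
Levels in CPM (y axes, from 0) of Gal, Npy, Tac1, Adcyap1, Egr4, Nptx2, Xlr3a and Xlr3b in each sample, numbered by replicate, with circles for replicates 1-3, triangles for 4-6, and bars for the mean and SD (n = 6). Gal, Npy, Xlr3a and Xlr3b do not overlap between groups, and single proestrus samples stand high, such as replicate 6 for Npy at 52 CPM.

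Among ion channels, the voltage-gated calcium channel subunits leaned lower in metestrus. Of 24 tested, 18 were lower on average and 5 passed, none higher, against 2.11% of all genes lower. The median was -0.08 (-0.07 in replicates 1-3 and -0.09 in replicates 4-6). Gene by gene, 13 of the 24 (54.2%) had the same sign in both series, near the 51.3% of all genes. Cacna1a, the pore of P/Q-type channels of presynaptic terminals, was at 33.8 to 44.1 CPM in proestrus and 32 to 36.9 CPM in metestrus (-0.15, -0.26 to -0.04). Cacna1e, the R-type pore, was at 20.4 to 28.5 and 15 to 24.5 CPM (-0.22, -0.40 to -0.04). The others were Cacna1c (L-type, -0.20), Cacna1b (N-type, -0.24) and the auxiliary subunit Cacnb3 (-0.30, -0.56 to -0.03), and the count was 2 without F2/metestrus replicate 4, 3 without F1/proestrus replicate 2 or 5 and 2 without the series term. The stem Cacna was the second lowest of the 288 name stems (median -0.12 over 14 genes), after Tbx (-0.13). That rank draws on values of the same fit and is no separate support. Sodium channel subunits had 3 of 13 lower, and 1 without F1/proestrus replicate 5. Potassium channel subunits had 1 higher and 2 lower of 82. Calls in the TRP channel (1 of 24), purinergic (1 of 22) and neurotrophin (2 of 16) lists were all lower, and without that replicate no member of these lists was lower at p under 0.05.

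Immediate early genes, which neurons transcribe within minutes of strong input, leaned lower in metestrus. Of 38 tested, 29 were lower on average, 3 at p under 0.05 and none higher, against 2.11% of all genes lower, with a median of -0.09. Egr4 was at 5.89, 5.67, 7.48, 8.79, 5.99 and 7.94 CPM in proestrus and at 5.07, 4.34, 6.71, 4.39, 5.13 and 4.8 CPM in metestrus (-0.45, -0.74 to -0.17). Only metestrus replicate 3 entered the proestrus range. Nptx2, a secreted pentraxin that clusters AMPA receptors, was at 14.5 to 24.9 CPM in proestrus and 14.3 to 15.8 CPM in metestrus (-0.29, -0.50 to -0.08), and proestrus replicates 4 to 6 held the high values. Dusp5, a phosphatase of the ERK kinases, was the third (-0.32, -0.63 to -0.01).

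Fos, the usual marker of neurons activated by noxious input, was at 45.6, 45.5, 53.5, 59.8, 37.2 and 55.8 CPM in proestrus and at 44.2, 40.7, 56.1, 34, 39.8 and 39.9 CPM in metestrus (-0.23, -0.49 to 0.02). Proestrus replicate 5 was the second lowest of the 12. Without it, 9 members were lower at p under 0.05, Fos (-0.29, -0.53 to -0.06), Egr1 (-0.21) and Npas4 (-0.42) among them, and 1 was higher, Egr2 (0.34), against 2.48% of all genes lower. Without 1 sample the count of lower members went from 2 to 11, the 11 without F2/metestrus replicate 3. The list's median was -0.01 in replicates 1-3 and -0.17 in replicates 4-6. Of 22 circadian clock genes, Nr1d1 passed (-0.12, -0.23 to -0.01), and none of 25 heat shock and chaperone genes did, with every interval within 1.5-fold.

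**Figure D5:**
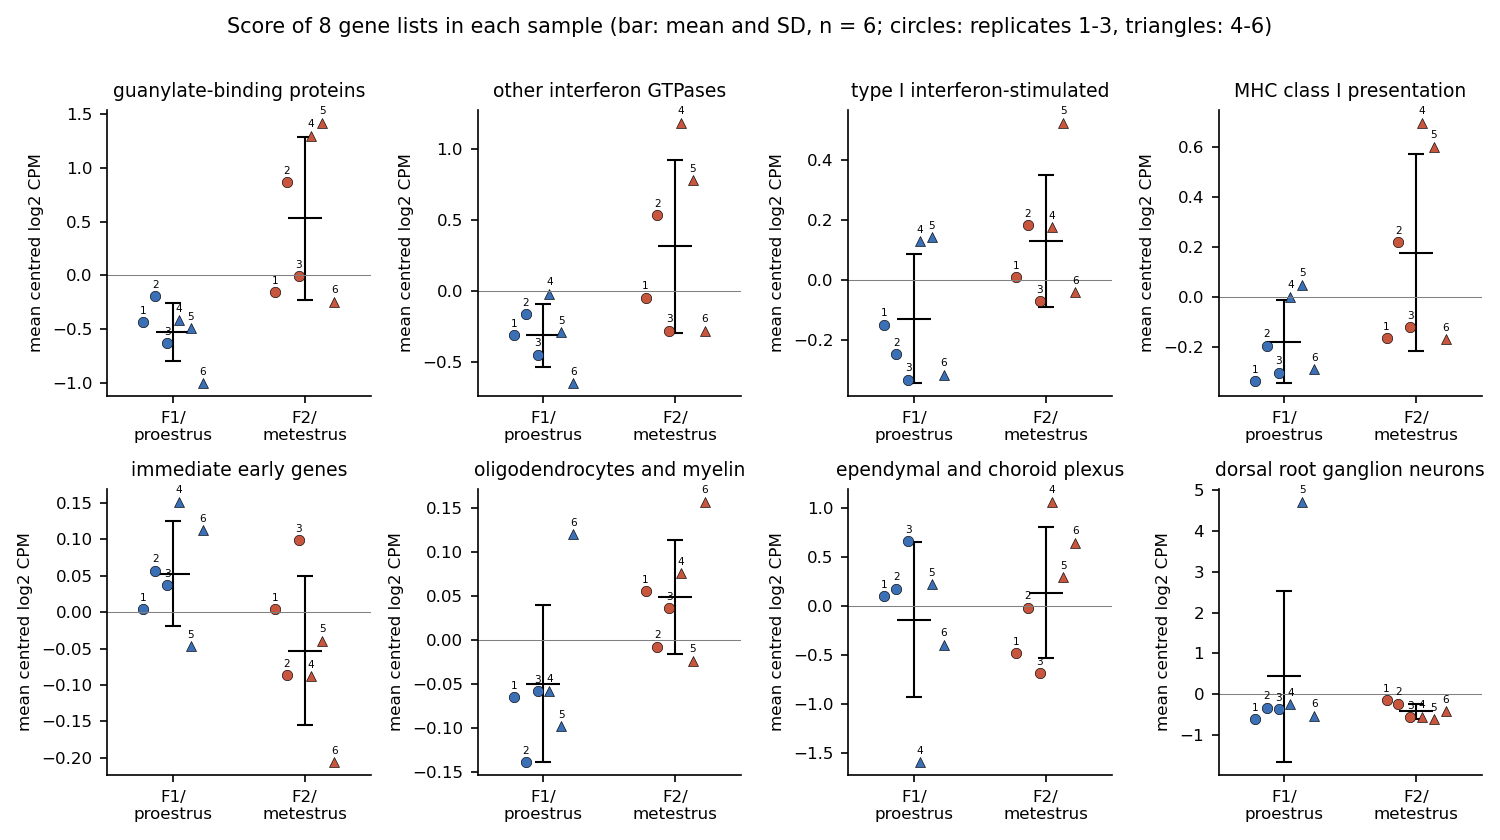
Centered mean log2 level (y axes) of the tested members of 8 lists in each sample, numbered by replicate, with circles for replicates 1-3 and triangles for 4-6. The GBP score is high in metestrus replicates 2, 4 and 5 (0.87, 1.30 and 1.42), and the DRG score is high in proestrus replicate 5 alone (4.73).

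All 16 tested genes of oligodendrocytes and central myelin were higher on average, with a median of 0.10 in the pooled fit, 0.10 in replicates 1-3 and 0.11 in replicates 4-6. Of these, 4 were at p under 0.05, against 1.39% of all genes, among them Opalin (0.18), a membrane protein of myelin paranodes, and Ugt8a (0.13), which makes the myelin lipid galactosylceramide. The count was 1 without F1/proestrus replicate 2 or F2/metestrus replicate 6, 8 without F1/proestrus replicate 6 and 2 to 6 without any other sample, and 0 without the series term. The list score was -0.14 to 0.12 in proestrus and -0.02 to 0.16 in metestrus, and proestrus replicate 6, at 0.12, was above 5 of the 6 metestrus samples. Oligodendrocyte precursors had 2 of 14 higher, Olig2 (0.17) and Enpp6 (0.14), microglia 1 of 20, Cx3cr1, and homeostatic astrocytes 0 of 17.

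Of the 24 endothelial and mural genes, 19 were lower on average in metestrus, with a median of -0.04. At p under 0.05, 2 were lower, against 2.11% of all genes. Myh11, smooth muscle myosin, was at 15, 14.1, 13.9, 13.5, 12 and 8.39 CPM in proestrus and at 13.1, 10.4, 10, 6.89, 8.74 and 6.92 CPM in metestrus (-0.47, -0.71 to -0.23). Acta2, smooth muscle actin, was at 14 to 23.4 and 11.8 to 20.6 CPM (-0.33, -0.61 to -0.04). The groups overlapped for both. Without F1/proestrus replicate 3, 4 or 5 or F2/metestrus replicate 2 or 4 the list's count was 1, Myh11, and Acta2 did not pass. Without F2/metestrus replicate 5 the count was 5. Meningeal fibroblast, Schwann cell, red blood cell, ependymal, motor neuron and general neuron lists had no member past the threshold. Without F1/proestrus replicate 5, 3 Schwann cell, 2 meningeal fibroblast and 1 motor neuron list members were higher. Reactive astrocytes had 1 of 19, Cxcl10, which is also on the chemokine list.

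Large families gave medians near 0. For their counts at p under 0.05, the shares over all genes were 1.39% higher and 2.11% lower. Cytosolic ribosomal proteins were lower on average in 68 of 83 genes (median -0.05), with Rpl17 alone at p under 0.05 (-0.49, -0.91 to -0.07) and 7 members without F1/proestrus replicate 5. Nuclear genes of oxidative phosphorylation had 0 of 84 (median -0.03). The 13 mitochondrially encoded genes did not pass the filter in this count table, so nothing is said here of their expression. Of 375 zinc finger genes, 2 were higher and 4 lower, and of 58 clustered protocadherins, 0. Collagens had 1 higher and 3 lower of 43, Hox genes 2 lower of 34 (Hoxa4 at -0.23, and Hoxd1 at -0.91, or -0.26 without F1/proestrus replicate 5, where it was at 3.84 CPM), histones 1 lower of 48, keratins 1 lower of 18, serpins 1 higher of 24 and prostaglandin pathway genes 2 lower of 21. Dorsal horn transcription factors had 1 lower of 26. Perineuronal net genes (24), cell division genes (23) and genes that escape X inactivation (10) had 0.

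The Xlr3, Xlr4 and Xlr5 genes, a multicopy X-linked lymphocyte-regulated family, had 3 of 9 members tested, all lower on average. Xlr3a was at 3.45, 3.46, 3.71, 3.21, 5.78 and 4.62 CPM in proestrus and at 1.93, 2.23, 2.45, 2.64, 2.3 and 2.42 CPM in metestrus (-0.79, -1.06 to -0.52). Xlr3b was at 3.9 to 11.9 CPM in proestrus and 2.48 to 3.9 CPM in metestrus (-0.98, -1.45 to -0.50). Neither overlapped between groups. Xlr3c, near the floor in some samples, differed by -0.57 (-1.32 to 0.18). The 3 share 44.8%, 56.5% and 72.1% of their 50-base words with other genes, so their counts are uncertain. The related gene Xlr, outside the list and named after its values were seen, differed by 0.10 (-0.55 to 0.75).

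Outside the lists, among protein-coding genes at a mean of 1 CPM or more, the smallest p in metestrus-higher genes was that of Ednra, the endothelin A receptor of smooth muscle and astrocytes. It was at 6.63, 6.15, 6.02, 6.31, 6.58 and 6.14 CPM in proestrus and at 7.49, 7.61, 8.36, 7.48, 7.27 and 7.44 CPM in metestrus (0.27, 0.14 to 0.40). The groups did not overlap, and the difference was 0.31 in replicates 1-3 and 0.23 in replicates 4-6. Myo1f, a myosin of microglia and leukocytes (0.25, 0.10 to 0.40), Tubd1, delta-tubulin (0.26, 0.10 to 0.43), and the chloride channel protein Clic4 (0.10, 0.03 to 0.18) did not overlap either. Clic4 was at 439 to 458 CPM in proestrus and 461 to 506 CPM in metestrus.

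Of the same 12 genes, Ifi47 (1.23) and Gm43302 (1.43) are interferon-inducible GTPases that were on no list. Gbp6 shares 65% of its 50-base words with Gm43302, so the counts of Gm43302 are uncertain too. Cd274, the T cell checkpoint ligand PD-L1 (0.61), also of the 12, was at 8.04, 9.99, 6.45, 11.4, 15.9 and 6.8 CPM in metestrus, highest in replicates 2, 4 and 5. Comp, a cartilage matrix protein, was at 0.889 to 1.98 CPM in proestrus and at 1.35, 9.77, 2.77, 1.24, 21 and 1.01 CPM in metestrus (2.26, 0.83 to 3.70), so replicates 2 and 5 carried it. On the lower side, Rreb1, a zinc finger transcription factor, was at 5.34 to 9.53 CPM in proestrus and 4.18 to 7.79 CPM in metestrus (-0.46, -0.68 to -0.24). Tead2, a transcription factor of the Hippo pathway (-0.44, -0.70 to -0.19), Nav1, a neuronal microtubule protein (-0.23), Tenm4, a teneurin (-0.17), and Ogt, which adds O-GlcNAc to proteins (-0.18), were also among the 12.

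The effect of stage differed between library series in 2 genes at a false discovery rate of 5% (0.00832% of 24042). Armc3, an armadillo repeat gene of ciliated cells, differed by -1.06 in replicates 1-3 and 1.43 in replicates 4-6 (adjusted p of the interaction = 0.0401, edgeR fit). It was at 1.1, 1.38, 1.67, 0.505, 0.649 and 0.602 CPM in proestrus and at 0.579, 0.798, 0.618, 1.92, 1.17 and 1.63 CPM in metestrus. The predicted gene Gm10714 differed by -2.02 and 2.70 (adjusted p = 0.0401). Without F1/proestrus replicate 5 the count was 48. The ependymal list had the same signs, with medians of -0.71 and 1.20, and its marker Ccdc153 ranged from 0.154 CPM in proestrus replicate 4 to 6.79 CPM in metestrus replicate 4.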

How the data were processed

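RNA sequencing of the ipsilateral DHSC of 12 females was used, and the labels and the methods name different library kits. Per the labels and methods, the authors aligned reads to mm10 and deposited raw counts per gene from featureCounts. The submitters' processing notes name bcl2fastq 2.20.0.422, Subread 2.0.3 and DESeq2 1.3.0. Strand setting is not given in the sources used here, so antisense and overlapping genes cannot be told apart. Fold changes in other deposited tables were not used.

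Of 55573 gene IDs, 55394 were named from GENCODE vM21. Counts were filtered with filterByExpr (10 counts, total 15), scaled by TMM and fitted with edgeR 4.0.16 (quasi-likelihood, R 4.3.3) on 6 F1/proestrus and 6 F2/metestrus samples with library series as a covariate. The series are the 2 runs of library numbers in the table's header, replicates 1-3 and 4-6. P-values were adjusted over all tested genes (Benjamini-Hochberg, 5%). Intervals are 95%. List scores average members' log2 CPM (prior count 2), centered per gene, and lists were described by counts and medians without a test. The 50-base words were compared over annotated exons. Scripts were tested on simulated data. DESeq2 1.42.0, limma 3.58.1 voom, other filters and left-out samples were alternatives.

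Members and lists were chosen with earlier results of these data known. Named genes were the first 2 members of a list (the highest 2 for lists made by name pattern), the 3 with the smallest p, all members of lists of 10 or fewer, members without overlap, and, outside lists, the 12 with the smallest p per direction at a mean of 1 CPM or more. Further members were named for their role or family, some after values were seen. Results for a few list members are counted in the lists but not reported here by name.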

Additional observations from a re-analysis of the deposited data

Results flagged for a closer look

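A check of each group of 6 for a sample far from the other 5 covered 230 groups (64 list scores and 51 genes, in each stage). It marked 25, where chance marks about 1 in 20 of separate groups. These groups are not separate, since lists share members and were chosen with earlier results known, so the 25 cannot be set against that rate. F1/proestrus replicate 5 was the high sample in 12 list scores: DRG neurons at 4.73 (next sample -0.26), sodium channels 1.63 (0.19), neurotrophins 1.06 (0.07), TRP channels 0.66 (0.07), prostaglandin pathway 0.50 (0.06), reactive astrocytes 0.49 (0.02), purinergic genes 0.45 (0.05), acetylcholine and cannabinoid genes 0.38 (0.04), cholesterol synthesis 0.27 (-0.02), metabotropic glutamate genes 0.20 (0.01), monoamine receptors 0.18 (0.02) and potassium channels 0.17 (-0.01). The same replicate was at 125 CPM for Scn10a and 11.9 CPM for Xlr3b, against at most 0.153 and 6.66 CPM in the other proestrus samples. F1/proestrus replicate 6 was high in the oligodendrocyte score (0.12, next -0.06) and at 52 CPM for Npy (next 33.1).

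F2/metestrus replicate 4 was high for Gbp4 (15.1 CPM, next 4.55), Tgtp2 (11.6, next 4.75), H2-Q6 (13.5, next 3.82) and Lcn2 (4.38, next 2.6), and in the red blood cell score (0.68, next -0.01). F2/metestrus replicate 3 was high for Egr4 (6.71 CPM, next 5.13) and Ednra (8.36, next 7.61) and low for Nptx2 (14.3, next 15.4). F2/metestrus replicate 6 was high for Opalin (64.1 CPM, next 49). The edgeR tests of the interaction of stage and library series gave adjusted p = 0.0401 for Armc3 and 0.0401 for Gm10714.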

How the results depend on the processing

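No gene passed the false discovery rate of 5% in any alternative except DESeq2, with or without the series term (2 genes each, Xlr3a and Gbp10), and the fit without a low-count filter (22 genes, among them Gbp10, Xlr3a, Tap1, Iigp1, Gbp2, Gbp3 and Myh11). Genes higher at p under 0.05 numbered 581 with voom and 595 without a filter. Genes lower numbered 803, 1099, 798 in replicates 1-3 alone and 330 in replicates 4-6 alone. The interaction with series gave 177 genes without a filter, 0 with 10 counts in every sample, 32 with voom and 18 with DESeq2. In replicates 1-3 alone 4 GBPs, 2 interferon-inducible GTPases, 11 type I interferon-stimulated genes and 6 MHC class I genes were higher at p under 0.05. In replicates 4-6 alone the counts were 10, 8, 1 and 8. Over all genes 408 and 318 were higher in these 2 fits, which held fewer samples. With voom or without the series term 7 MHC class I genes were higher at that threshold.

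Leaving out 1 sample gave 0 to 0 calls, 286 (without F2/metestrus replicate 1) to 568 (without F2/metestrus replicate 5) genes higher, 384 (without F2/metestrus replicate 4) to 649 (without F2/metestrus replicate 6) lower, and 0 to 48 in the interaction (48 without F1/proestrus replicate 5). Members at p under 0.05 ranged from 9 to 10 (GBPs), 7 to 9 (GTPases), 7 to 13 (interferon-stimulated) and 6 to 13 (MHC class I), and their medians from 0.81 to 1.15, 0.43 to 0.75, 0.12 to 0.26 and 0.20 to 0.37. The replicate block gave 0 calls, 418 genes higher and 477 lower. Samples share only a number: same-numbered deviations correlated at -0.000326 to 0.247. Of 1380 list medians 12 moved by more than the spread, and of 8944 values of named genes 87. The cause of these shifts was not tested. Depth limits genes near the floor, such as the interferons.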
